A study of Homo sapiens with 8 samples.

Results

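The genes described here are the kinases, cyclins and transcription factor that carry a cell from G2 into mitosis: *CDK1*, *CCNA2*, *CCNB1*, *CCNB2*, *CDC25C*, *PLK1*, *AURKA*, *AURKB*, *WEE1* and *FOXM1*. They were chosen by name for this role, with earlier results of these data known. Of the 10 genes, 9 were measured, by 11 probes, among 22439 genes that could be named on the array. *PLK1* had no probe under the accession used for naming, so its mRNA was not analysed here, although its promoter window is counted below.

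The study hybridised 8 arrays with a pair of dyes, with RNA of treated lung cancer cells in Cy5 (red) and RNA of control cells of the same line in Cy3 (green). EBC-1 and SK-MES-1, lines of lung squamous cell carcinoma, were transfected with miR-150-3p, 1 array each. SBC-3, a line of small cell lung cancer, was transfected with siDONSON-1, siDONSON-2 or siDONSON-3, small interfering RNAs against *DONSON*, a gene that protects replication forks, 1 array each. A549, a line of lung adenocarcinoma, carried a *LOXL2* gene edited with CRISPR/Cas9, and 3 arrays, here GE1, GE2 and GE3, compared edited cells with cells without genome editing. The labels give transfection with Lipofectamine RNAiMAX as the treatment of every array, the arrays of edited cells and the control RNA included, so whether the A549 cells were also transfected is not settled. The control cells of the transfected lines were called mock and also tagged as having no transfection, so what they received is not settled. The labels give no time of harvest for an array, although the published methods state a transfection time for the squamous lines. They do not say whether GE1 to GE3 are separate clones, and do not say whether the control RNA of a group came from 1 preparation or from 3. No array swapped the dyes, so a dye bias that a gene carries on every array cannot be told apart from a change in the treated cells.

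In each cell the kinase CDK1 binds cyclin A or cyclin B and is held inactive by phosphate groups until the phosphatase CDC25C removes them. Polo-like and Aurora kinases set off and spread this activation, and the WEE1 kinase opposes it. The transcription factor FOXM1, together with the MuvB complex and B-MYB, switches on most of these genes in G2, so that their mRNAs are abundant in dividing cells and scarce in resting cells, and tumours of the lung commonly express them at high levels.

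The members' mRNAs were lower in the EBC-1 cells after the miRNA, miR-150-3p, was transfected, and all 9 measured members lay below 0 on the log2 scale of red over green. On that array 8 of 9 members had a log2 ratio below -1, the threshold used here for an array without a replicate, against 6.04% of the 14759 genes with a value. No member lay above 1, against 5.96% of genes. In the SK-MES-1 cells, transfected with the same miRNA, 0 of 9 members lay below -1, where 1.27% of 16176 genes did, and 0 lay above 1, where 2.57% did. The median of the members was -1.37 in EBC-1, against -0.076 in SK-MES-1, and the medians of all genes were 0.053 and 0.018. These arrays of 1 per line have no replicate and no p-value. The error that the Feature Extraction software gives for a ratio covers technical noise within an array only. In RNA from a whole culture, fewer dividing cells and less RNA per cell cannot be told apart.

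**Figure D1:**
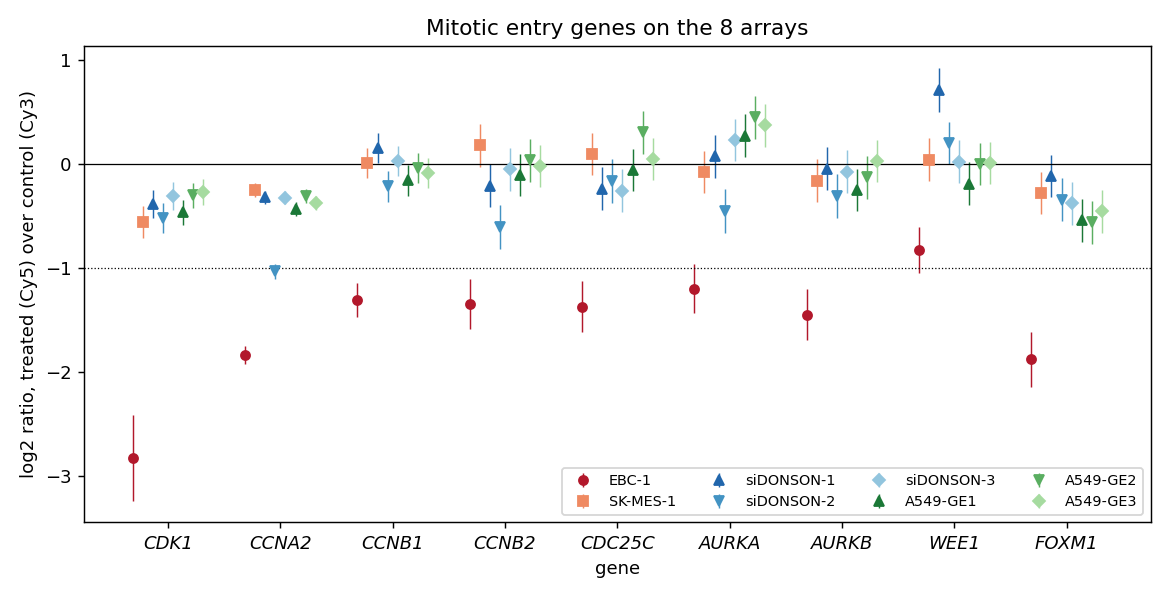
Log2 ratio of treated over control (vertical axis) of the 9 measured members on each of the 8 arrays, with bars of 1 software error on either side and a dotted line at -1. On the EBC-1 array 8 members lie below -1, on the siDONSON-2 array *CCNA2* does at -1.03, and no member does on the other arrays.

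The members that form the active kinase are described before the others. *CDK1* encodes the catalytic subunit, and its mean log2 ratio over 2 probes was -2.82 in EBC-1, -0.56 in SK-MES-1, -0.38, -0.52 and -0.31 with siDONSON-1 to siDONSON-3, and -0.47, -0.30 and -0.27 in edited A549 GE1 to GE3. It lay below 0 on all 8 arrays and was farthest from 0 in EBC-1. The better measured probe, printed at 10 spots, gave -2.51 in EBC-1 with a software error of 0.098 and an SD between spots of 0.051, which corresponds to 5.69-fold more signal in the control. Its green intensity there was 2565 and its red intensity 451.1. The other probe gave -3.14, but its red signal of 6.18 was not well above background, so that value is a bound set by the background and not a level, and the mean of -2.82 includes it.

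*CCNA2* encodes cyclin A2, the partner of CDK1 in G2. It had log2 ratios of -1.84 in EBC-1, -0.25 in SK-MES-1, -0.32, -1.03 and -0.32 with the 3 siRNAs, and -0.43, -0.31 and -0.38 in the edited A549 cells. All 8 arrays were again below 0, and siDONSON-2 stood apart from the other siRNAs. In EBC-1 the software error was 0.084, and the control signal was 3.58-fold the treated signal.

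*CCNB1* encodes cyclin B1, which brings CDK1 into the nucleus at mitotic entry. Its log2 ratio, the mean of 2 probes, was -1.31 in EBC-1, 0.014 in SK-MES-1, 0.15, -0.22 and 0.030 with the siRNAs, and -0.16, -0.041 and -0.089 in edited A549. EBC-1 alone was far from 0, and its 2 probes gave -1.34 and -1.28. In SK-MES-1 the probes gave -0.041 and 0.068 in the same order. *CCNB2*, for cyclin B2, had -1.34 in EBC-1, 0.18 in SK-MES-1, -0.21, -0.60 and -0.051 with the siRNAs, and -0.11, 0.035 and -0.022 in edited A549. Both B-type cyclins thus had ratios of opposite sign in the squamous lines, *CCNB1* by the mean of its probes but not by each probe. In SK-MES-1 neither lay outside 95% limits of the software error.

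The promoters of the kinase and its cyclins share a match to CCAAT on either strand, which played no part in their choice. The sequences run from 250 bases before to 50 bases after a gene start in RefSeq on build GRCh38.p14 and are shown because these mRNAs moved in the same direction in EBC-1. Capitals mark TTTGAA, the core of the cell cycle genes homology region to which the MuvB complex binds, and CCAAT, the box read by the factor NF-Y, each on either strand, so that TTCAAA and ATTGG count as matches. They are *CDK1* at chr10:60778228-60778527 on the plus strand, *CCNA2* at chr4:121823834-121824133 on the minus strand, *CCNB1* at chr5:69166900-69167199 on the plus strand and *CCNB2* at chr15:59104896-59105195 on the plus strand, all printed 5′ to 3′ along the gene.
CDK1: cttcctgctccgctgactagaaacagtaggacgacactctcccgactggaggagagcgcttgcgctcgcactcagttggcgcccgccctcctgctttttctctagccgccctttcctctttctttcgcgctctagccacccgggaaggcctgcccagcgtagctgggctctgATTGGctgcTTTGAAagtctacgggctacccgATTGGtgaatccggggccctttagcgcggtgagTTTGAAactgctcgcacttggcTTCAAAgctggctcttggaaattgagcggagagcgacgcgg
CCNA2: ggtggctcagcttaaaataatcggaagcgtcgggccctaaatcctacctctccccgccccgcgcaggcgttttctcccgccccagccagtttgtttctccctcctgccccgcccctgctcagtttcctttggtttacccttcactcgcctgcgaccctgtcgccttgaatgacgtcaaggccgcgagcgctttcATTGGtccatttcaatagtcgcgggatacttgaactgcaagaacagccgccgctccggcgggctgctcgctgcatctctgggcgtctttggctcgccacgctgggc
CCNB1: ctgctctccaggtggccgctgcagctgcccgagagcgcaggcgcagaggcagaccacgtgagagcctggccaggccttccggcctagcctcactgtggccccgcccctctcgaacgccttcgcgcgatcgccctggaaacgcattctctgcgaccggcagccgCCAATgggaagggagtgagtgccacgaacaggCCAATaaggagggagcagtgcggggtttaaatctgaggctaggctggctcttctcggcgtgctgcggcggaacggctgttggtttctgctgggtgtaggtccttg
CCNB2: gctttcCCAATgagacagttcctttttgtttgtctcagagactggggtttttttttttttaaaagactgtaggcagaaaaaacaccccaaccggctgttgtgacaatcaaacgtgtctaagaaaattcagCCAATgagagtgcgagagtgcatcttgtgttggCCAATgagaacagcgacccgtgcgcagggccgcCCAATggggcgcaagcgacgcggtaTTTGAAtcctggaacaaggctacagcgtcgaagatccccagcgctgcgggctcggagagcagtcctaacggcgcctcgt
The *CDK1* window printed here held TTTGAA at -69 and -13 and TTCAAA at 10, with ATTGG at -78 and -46. Positions are counted from the gene start to the leftmost base of the match. Another *CDK1* window, from a different start, held TTTGAA at -161 and CCAAT at -150 and is not printed. The *CCNA2* window held ATTGG at -56 and no TTTGAA on either strand. The *CCNB1* window held CCAAT at -87 and -55, and the *CCNB2* window held it at -244, -120, -87 and -54 beside TTTGAA at -29. Windows were found for 7 of the 10 members, some with several starts. Of their 12 windows, 10 held CCAAT, 6 held TTTGAA and 6 held both. Some of these windows overlap, and sites of *CDC25C* and *AURKB* were counted in more than 1 window, so the counts are not of separate sites. TTTGAA occurred in windows of *CDK1*, *CCNB2*, *CDC25C* and *PLK1*. Among 35116 windows of the same length, 34.6% held CCAAT, 15.2% held TTTGAA and 5.9% held both. A match of letters is a description of the window and no evidence that a factor binds there.

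*CDC25C* and *WEE1* act on CDK1 from opposite sides. *CDC25C*, whose phosphatase activates CDK1, had log2 ratios of -1.37 in EBC-1, 0.096 in SK-MES-1, -0.24, -0.16 and -0.26 with the siRNAs, and -0.059, 0.30 and 0.048 in edited A549. The 3 siRNA arrays all lay below every edited array, as they did for *AURKA*, while for *WEE1* and *FOXM1* they all lay above. The share of all genes without such overlap was not counted. *WEE1*, whose kinase restrains CDK1, had -0.83 in EBC-1 with a software error of 0.22, 0.041 in SK-MES-1, 0.71, 0.20 and 0.024 with the siRNAs, and -0.19, -0.00087 and 0.0094 in edited A549. It was the measured member that did not reach -1 in EBC-1, and it lay above 0 with all 3 siRNAs, highest with siDONSON-1.

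The Aurora kinases act at different places in the dividing cell. *AURKA*, which acts at the centrosome and activates PLK1, had -1.20 in EBC-1, -0.076 in SK-MES-1, 0.072, -0.45 and 0.23 with the siRNAs, and 0.27, 0.45 and 0.37 in edited A549. *AURKB*, the kinase of the chromosomal passenger complex at centromeres, had -1.45 in EBC-1, -0.16 in SK-MES-1, -0.045, -0.31 and -0.073 with the siRNAs, and -0.25, -0.13 and 0.029 in edited A549. *AURKA* was above 0 on all 3 arrays of edited cells, and *AURKB* was above 0 on GE3 alone of the 8 arrays.

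*FOXM1* encodes the transcription factor of the group and had log2 ratios of -1.88 in EBC-1, -0.28 in SK-MES-1, -0.11, -0.35 and -0.38 with the siRNAs, and -0.54, -0.56 and -0.46 in edited A549. In EBC-1 its software error was 0.27, and its intensity was 8374 in the control and 2278 in the treated cells, 3.68-fold apart. It lay below 0 on every array. *CDK1*, *CCNA2* and *FOXM1*, 3 of 9 members, were below 0 on all 8 arrays, where 4.85% of the 12862 genes with a value on every array were. No member was above 0 on all 8, where 6.48% of genes were.

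All 9 members were outside 95% limits of the software error in EBC-1, all of them below, where 20.0% of genes were below and 21.6% above. In SK-MES-1 2 of 9 members were, *CDK1* and *CCNA2*, both below, where 9.46% of genes were below and 9.76% above. The gap between the lines ran from 0.87 for *WEE1* to 1.98 for the probe of *CDK1* with 10 spots, SK-MES-1 minus EBC-1, and was not tested because each line had 1 array. After another background correction with an offset (normexp and loess), the median in EBC-1 was -1.02 and 5 of 9 members lay below -1. *CDK1* then stood at -0.998, a mean that includes the probe at background in EBC-1, and its probe with 10 spots was not taken alone in this setting. *CCNA2* stood at -1.14, *CDC25C* at -0.66, *AURKB* at -0.89 and *WEE1* at -0.41, and the median in SK-MES-1 at 0.018. With the mean of the 6 other arrays subtracted, 8 of 9 members lay below -1 in EBC-1. On the SK-MES-1 array *CDK1* then had -0.19, *CCNA2* 0.22 and *FOXM1* 0.12. This step removes a dye bias shared by all arrays, but also any change in the treated cells of those 6 arrays.

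Averaged over the squamous lines in a fit by limma of all 8 arrays in 3 groups, *CDK1* was lower, below 0 on 2 of 2 arrays. The probe with 10 spots alone gave a mean log2 ratio of -1.52 and a Benjamini-Hochberg adjusted p of 0.044 by limma. With both probes the mean was -1.69 and the adjusted p 0.048 by limma over 12862 genes, a value that includes the probe at background in EBC-1. *CDK1* was 1 of 9 members called lower, at a threshold of 0.05, where 3.9% of genes were, and 0 members were called higher, where 3.06% were. At an unadjusted p under 0.05 limma had 6 of 9 members, all lower, where 15.9% of genes were lower and 15.1% higher. *FOXM1* averaged -1.08 (adjusted p 0.065) and *CCNA2* -1.04 (adjusted p 0.082), each below 0 on both arrays, and did not pass. The adjusted p of *CDK1* ran from 0.033 to 0.056 over the alternatives that kept all arrays. With EBC-1 alone as the miRNA group 9 of 9 members were called lower by limma, where 1555 of 12968 genes were. With SK-MES-1 alone 0 were, where 12 of 13397 genes were called in either direction, so that the count of 0 says nothing particular about the members. *CDK1* then had -0.56 and an adjusted p of 0.205, and its call in the average rests on the EBC-1 array. In those fits the lone array was assumed to vary like the other groups. The p-values given here and below measure the spread between these samples, and the groups of a fit share the estimate of it. In the miRNA average that spread includes the difference between the lines, and with siDONSON the difference between the siRNAs. Between the arrays of edited cells it may be technical, since the labels do not say that the cultures were separate.

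In the cells with siDONSON the target was measured as follows. *DONSON* had log2 ratios of -2.15, -1.79 and -2.11 with siDONSON-1 to siDONSON-3, a mean of -2.02 with a 95% interval of -2.26 to -1.77 (limma, adjusted p 0.00092, lower on 3 of 3 arrays). *DONSON* also had -1.02 in EBC-1, against -0.22 in SK-MES-1.

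With siDONSON, *CDK1* fell by a mean log2 ratio of 0.40 (SE 0.080, 95% interval -0.59 to -0.21), or 1.32-fold, and no other member passed the test. It was lower on 3 of 3 arrays, with an adjusted p of 0.027 by limma, and was 1 of 9 members called lower, where 5.08% of genes were. The probe of *CDK1* with 10 spots gave -0.35, -0.39 and -0.56 with siDONSON-1 to siDONSON-3. The other probe gave -0.42, -0.66 and -0.059. No member was called higher, where 6.79% of genes were, and at an unadjusted p under 0.05 limma had 5 of 9 members, all lower, where 13.2% of genes were lower and 18.3% higher. The median of the members was -0.22 and that of all genes 0.032. On siDONSON-2 alone the members' median was -0.35, against -0.11 on siDONSON-1 and -0.073 on siDONSON-3. The call of *CDK1* ended without siDONSON-1, without siDONSON-3 and without any of GE1, GE2 and GE3, which share the estimate of spread, and when the squamous lines were fitted as 1 group or SBC-3 alone. Its adjusted p ran from 0.0133 to 0.480 over the alternatives.

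*CCNA2* had a mean of -0.56 with siDONSON (95% interval -0.90 to -0.21), lower on 3 of 3 arrays, and an adjusted p of 0.053 by limma, which ran from 0.032 to 0.230 over the alternatives. Without siDONSON-2 its mean shrank to -0.32, with an adjusted p of 0.032. The mean of *FOXM1* was -0.28, lower on 3 of 3 arrays, with an adjusted p of 0.069 by limma that ran from 0.044 to 0.506 and was 0.044 without siDONSON-1. *CCNB2* at -0.29 and *CDC25C* at -0.22 were below 0 on all 3 arrays, with adjusted p of 0.137 and 0.145 by limma, and without siDONSON-2 the mean of *CCNB2* was -0.13. *WEE1* was the member with a mean above 0, at 0.31 with a 95% interval of -0.0073 to 0.63 and an adjusted p of 0.166 by limma, above 0 on 3 of 3 arrays. Without siDONSON-1 that mean was 0.11, and the adjusted p ran from 0.093 to 0.453 over the alternatives. *AURKB* averaged -0.14, and -0.059 without siDONSON-2. *CCNB1* averaged -0.011 and *AURKA* -0.049, and both means were above 0 after normexp and without siDONSON-2, so their sign was not settled.

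In A549 the edited gene *LOXL2* had log2 ratios of -2.49, -2.67 and -2.59 on GE1 to GE3, a mean of -2.58 with a 95% interval of -3.14 to -2.02 (limma, adjusted p 0.0025, lower on 3 of 3 arrays). *FOXM1* fell in these cells by a mean of 0.52 (SE 0.081, 95% interval -0.71 to -0.33), or 1.43-fold, and *CDK1* by 0.35 (SE 0.080, 95% interval -0.54 to -0.15), or 1.27-fold. Each was lower on 3 of 3 arrays, with adjusted p of 0.0094 and 0.030 by limma. They were 2 of 9 members called lower, where 9.16% of genes were, and 0 were called higher, where 9.59% were. At an unadjusted p under 0.05 limma had 3 of 9 members lower and 1 higher, where 16.6% and 18.0% of genes were, so the members together lay near the share of all genes. Both calls ended without any of GE1, GE2 and GE3, and both ended when the squamous lines were fitted as 1 group. The adjusted p ran from 0.0019 to 0.195 for *FOXM1* and from 0.0061 to 0.541 for *CDK1*.

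The member at an unadjusted p under 0.05 in the other direction was *AURKA*, with a mean of 0.36 in edited A549 (95% interval 0.048 to 0.68, adjusted p 0.104 by limma), higher on 3 of 3 arrays. It passed after normexp, with A549 fitted alone and without siDONSON-2, and its adjusted p ran from 0.016 to 0.354. *CCNA2* averaged -0.37 on 3 of 3 arrays below 0, with an adjusted p of 0.123 by limma. It passed with A549 fitted alone and without siDONSON-2, and its adjusted p ran from 0.0095 to 0.397. *CCNB1*, *CCNB2*, *CDC25C*, *AURKB* and *WEE1* had means between -0.12 and 0.097. The median of the members was -0.096 and that of all genes 0.012. On GE1 alone the members' median was -0.19, against -0.041 on GE2 and -0.022 on GE3.

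**Figure D2:**
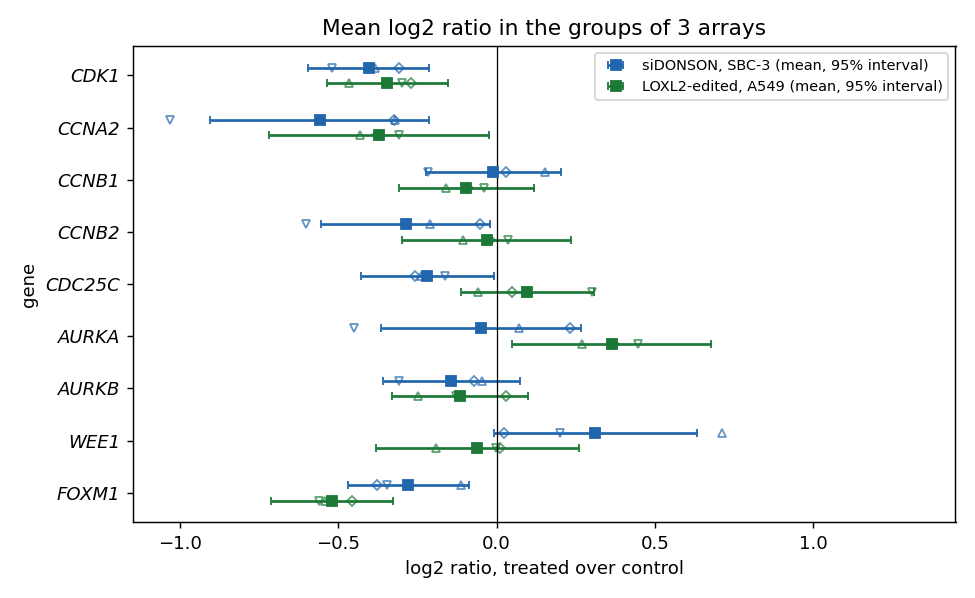
Mean log2 ratio of treated over control (squares) with its 95% interval by limma, and the arrays behind it (open symbols), for each measured member with siDONSON in SBC-3 and in *LOXL2*-edited A549. *CDK1* lies at -0.40 and -0.35, *FOXM1* at -0.28 and -0.52 and *AURKA* at -0.049 and 0.36.

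Markers of cell type moved in the edited cells as well. *EPCAM* had -3.11, -2.27 and -1.90 on GE1 to GE3, *CDH1* had 0.97, 1.61 and 1.51, and *NAPSA* had 0.94, 1.03 and 1.02, none of them tested for want of a value on every array. Of 7 markers tested, 2 fell and 1 rose by limma, *KRT18* at a mean of -0.75 (adjusted p 0.0035), *KRT8* at -0.53 (adjusted p 0.0083) and *SOX2* at 1.06 (adjusted p 0.013), each on 3 of 3 arrays. With siDONSON 0 of the 7 passed by limma and 3 had an unadjusted p under 0.05. After the miRNA *SOX2* had 1.32 in EBC-1 but -0.92 in SK-MES-1, and *VIM* had -0.96 and -0.17. The part of these shifts in the members' values was not tested.

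The difference between the siDONSON and the edited cells was tested in the same fit, where a dye bias that a gene carries on every array cancels. By limma 0 of 9 members differed in either direction, where 4.79% of genes were lower with siDONSON and 5.47% were higher, and 1 of 9 members had an unadjusted p under 0.05, where 29.7% of genes did. That member was *CDC25C*, at -0.32 (95% interval -0.61 to -0.019, adjusted p 0.148). The interval of the difference was -0.86 to 0.033 for *AURKA* and -0.030 to 0.51 for *FOXM1*. Both differences shrink with an array left out. Without siDONSON-2 the siDONSON mean of *AURKA* was 0.15 in place of -0.049. Without siDONSON-1 that of *FOXM1* was -0.36 in place of -0.28. The *FOXM1* difference of 0.24 passed after normexp, at 0.37 and an adjusted p of 0.034 in a range of 0.034 to 0.722. For *CDK1*, called lower in both groups, the difference was -0.059 and turned to 0.0071 after normexp.

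The genes that act around the members were grouped in lists of 51 genes in all, every one of them measured. The lists, too, were chosen with earlier results of these data known. In EBC-1 25 of the 51 lay below -1 and 0 above 1, where 6.04% and 5.96% of all genes did, with a median of -0.88. In SK-MES-1 0 lay below -1 and 1 above 1, near the 1.27% and 2.57% of all genes, with a median of -0.050. The counts of each list below -1 or above 1 are to be read against the same shares. Of 7 reference genes in common use, 0 lay below -1 in EBC-1, but 6 were below 0, 4 were below the 95% limits of the software error, and their median was -0.31, against 0.088 in SK-MES-1.

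The 6 targets of FOXM1 on the list, which act on spindles and kinetochores, all lay below -1 in EBC-1, with a median of -1.65, while on the SK-MES-1 array their median was -0.070. *CENPF*, a kinetochore protein, had -1.93 in EBC-1, against -0.029 in SK-MES-1, and *GTSE1*, a microtubule protein, had -1.82 and -0.27. All 3 partners of Aurora B in the chromosomal passenger complex lay below -1 in EBC-1, with *CDCA8* (borealin) at -1.67, *BIRC5* (survivin) at -1.52 and the scaffold *INCENP* at -1.26. Their median in SK-MES-1 was -0.18. Among 10 genes of the MuvB, B-MYB and DREAM complexes, 3 lay below -1 in EBC-1, namely *MYBL2* (B-MYB) at -1.75, *RBL1* (p107) at -1.23 and the MuvB subunit *LIN52* at -1.07. *RBL2* (p130), which silences these genes in resting cells, had 0.57 in EBC-1, against 0.16 in SK-MES-1. The medians of that list were -0.66 and -0.13.

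Of 11 genes that control CDK1, 5 lay below -1 in EBC-1, and the list had medians of -0.67 there and -0.026 in SK-MES-1. *PKMYT1*, a kinase that inhibits CDK1 beside WEE1, had -1.92 in EBC-1, against -0.31 in SK-MES-1. *CDC25A*, a phosphatase that activates it, had -1.69 and -0.026, while its relative *CDC25B* had -0.024 and 0.19. The checkpoint kinase *CHEK1* had -1.35 and -0.52. Activators and inhibitors of CDK1 were thus both among the low genes of EBC-1. In the list of cyclin destruction, 5 of 10 genes lay below -1 in EBC-1. *UBE2C*, which brings ubiquitin to the anaphase-promoting complex, was at -1.98, the inhibitor of that complex, *FBXO5*, at -1.94 and its activator *CDC20* at -1.47. The core subunit *ANAPC2* had 0.39. The medians were -0.67 in EBC-1, against -0.063 in SK-MES-1.

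The Greatwall pathway, which holds back the phosphatase PP2A during mitosis, had 1 of 6 genes below -1 in EBC-1, the kinase *MASTL* at -1.49, which had 0.031 in SK-MES-1. Its substrates *ENSA* and *ARPP19* had -0.21 and -0.27 in EBC-1, and the list had a median of -0.13 there and 0.019 in SK-MES-1. Of 5 activators of PLK1 and Aurora A, *TPX2* had -1.36 and *BORA* -1.24 in EBC-1, and -0.060 and -0.19 in SK-MES-1. In the same list *AJUBA* and *NEDD9*, which also work in cell adhesion, were above 0 in both lines, *AJUBA* at 0.99 in EBC-1, against 0.66 in SK-MES-1 and *NEDD9* at 0.83 and 1.04. The medians were -0.27 and 0.24.

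**Figure D3:**
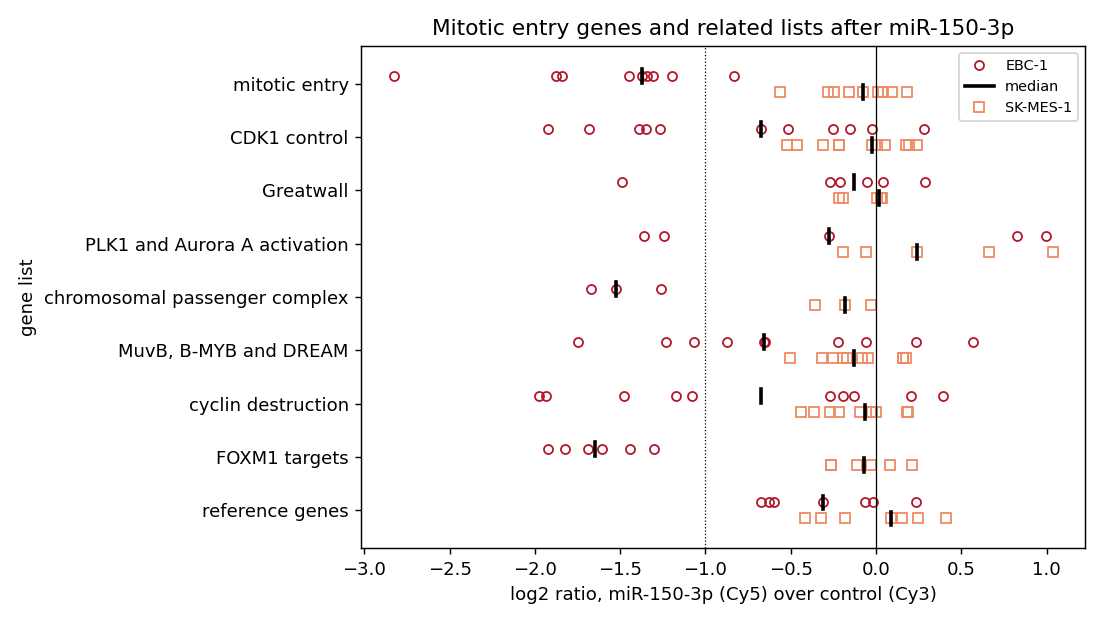
Log2 ratio of treated over control of the genes of each list, 1 point a gene, in EBC-1 and SK-MES-1. All 6 targets of FOXM1 and all 3 passenger proteins lie below -1 in EBC-1, and 0 of 51 genes lie below -1 in SK-MES-1.

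In the siDONSON group 1 of the 51 genes fell and 3 rose by limma, with 7 lower and 7 higher at an unadjusted p under 0.05. These counts lay near or below the shares of all genes, 5.08% lower and 6.79% higher by adjusted p and 31.5% in either direction by unadjusted p. *BORA* fell by 0.47 (adjusted p 0.022), lower on 3 of 3 arrays. *CDKN1A*, which encodes the CDK inhibitor p21, had 0.86, 1.22 and 0.46 and rose by a mean of 0.85 (adjusted p 0.018 by limma, 3 of 3 arrays). The PP2A subunits *PPP2R2D* and *PPP2R2A* rose by 0.47 and 0.35 on 3 of 3 arrays (adjusted p 0.023 and 0.031 by limma). In edited A549 0 of the 51 genes fell and 2 rose by limma, with 7 lower and 4 higher at an unadjusted p under 0.05, again below the shares of all genes, which were 9.16%, 9.59% and 34.6%. *CDKN1A* had 0.98, 0.89 and 0.96 there and rose by a mean of 0.94 (adjusted p 0.0077 by limma, 3 of 3 arrays), and *LIN37*, a MuvB subunit, rose by 0.28 (adjusted p 0.045, 3 of 3 arrays). In EBC-1 and SK-MES-1 *CDKN1A* had 0.28 and -0.46.

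Between the siDONSON and the edited cells 0 of the 51 genes were lower and 2 were higher with siDONSON by limma, where 4.79% and 5.47% of genes were. The higher genes were *PPP2R2D* by 0.63 and *PPP2R2A* by 0.42 (adjusted p 0.029 and 0.049 by limma). At an unadjusted p under 0.05, 4 were lower and 6 higher, where 29.7% of genes were in either direction. In the average of the squamous lines 3 genes fell and 0 rose by limma, with 24 lower and 3 higher at an unadjusted p under 0.05, where 3.9% and 3.06% of genes passed and 15.9% and 15.1% had such an unadjusted p. They were *CHEK1* at -0.94, *UBE2S* at -0.81 and *LIN52* at -0.79 (adjusted p 0.042, 0.034 and 0.035), each lower on 2 of 2 arrays. Reference genes passed the same tests. *RPLP0* was higher with siDONSON than in the edited cells by 0.43 and *TBP* by 0.40 (adjusted p 0.0497 and 0.047 by limma), as much as *PPP2R2A*. *TBP* fell by 0.37 and *RPLP0* by 0.29 in edited A549 (adjusted p 0.016 and 0.040 by limma, 3 of 3 arrays each), and *GAPDH* fell by 0.55 and *TBP* by 0.46 in the average of the squamous lines (adjusted p 0.029 and 0.042 by limma, 2 of 2 arrays each). In each of these comparisons 2 of the 7 reference genes were called, and with siDONSON 0 were. In A549 *TBP* and *RPLP0* moved by a size close to that of *CDK1*. The median of the 7 there was -0.036, and *ACTB* had 0.34 without passing (adjusted p 0.126 by limma). The lists were not tested again with an array left out.

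The siDONSON-2 array stood apart from the other siRNA arrays for several of these genes. *KIF20A*, a kinesin of cytokinesis on the list of FOXM1 targets, had 0.53, -1.20 and -0.24 with siDONSON-1 to siDONSON-3, and *NEDD9* had 0.10, -1.24 and 0.78. The medians of the members on those arrays were -0.11, -0.35 and -0.073, and in edited A549 they were -0.19, -0.041 and -0.022.

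The level of each member in the control cells was read from the green channel, as log2 intensity scaled between arrays, and averaged over the same probes in every line. The members' levels were higher in A549 than in SBC-3 for most genes. *AURKA* had a level of 11.41 in EBC-1, against 11.39 in SK-MES-1, a mean of 10.53 ± 0.058 in SBC-3 and of 12.22 ± 0.045 in A549 (SD, n = 3 arrays each), so that A549 was 3.24-fold above SBC-3. For *AURKB* the levels were 10.17, 9.55, 9.07 ± 0.060 and 10.28 ± 0.022 in the same order. Those of *CCNA2* were 10.23, 11.05, 9.54 ± 0.077 and 10.70 ± 0.036. In these 3 genes A549 was above SBC-3 by far more than the arrays of a line differed.

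*FOXM1* had levels of 12.86 in EBC-1, 11.93 in SK-MES-1, 11.39 ± 0.056 in SBC-3 and 11.82 ± 0.055 in A549. *CCNB2* had 13.96, 13.17, 13.12 ± 0.020 and 13.90 ± 0.033. *WEE1*, at 9.33, 10.07, 10.08 ± 0.084 and 9.66 ± 0.040, was lower in A549 than in SBC-3. *CDC25C* had 8.80, 9.06, 8.83 ± 0.077 and 8.97 ± 0.12, and its SBC-3 and A549 arrays overlapped. For *CDK1* the probes disagreed. The probe with 10 spots had 11.16 in EBC-1, 10.85 in SK-MES-1, 11.88 to 11.95 in SBC-3 and 12.01 to 12.04 in A549, while the dim probe had 5.60, 5.82, 6.69 to 6.90 and 6.45 to 6.60, so that A549 was above SBC-3 by the former and below it by the latter. The mean of both probes, used in the counts, overlapped between these lines. The probes of *CCNB1* also did not rank the squamous lines alike, since one gave 13.59 in EBC-1, against 13.79 in SK-MES-1 and the other 11.44 and 10.01.

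In A549 6 of 9 members were above SBC-3 with no overlap between arrays, where 38.4% of 11065 genes were, and 1 of 9 was below, where 49.7% of genes were. The median difference was 0.79 for the members and -0.13 for all genes, and the mean SD between arrays was 0.056. The Cy3 channels of a line may hold the same RNA, so this spread may be that of the arrays alone and no test was made.

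**Figure D4:**
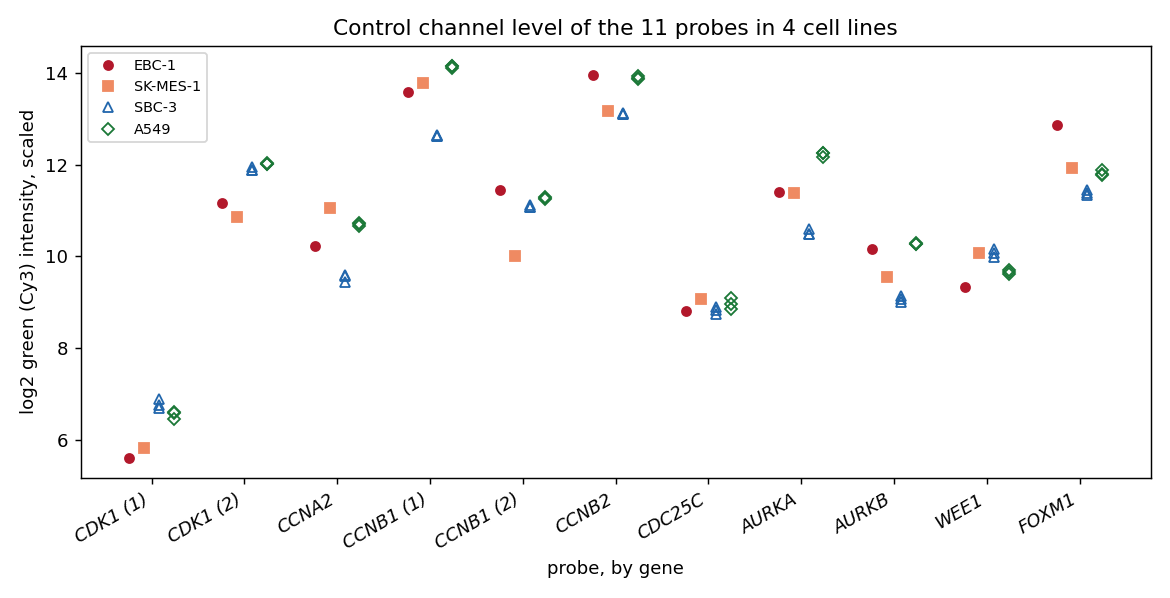
Scaled log2 intensity of the control channel (vertical axis) for each member's probe in the control cells of the 4 lines, 1 point an array, with *CDK1* and *CCNB1* drawn for each of their 2 probes. *AURKA* lies near 12.22 in A549 and near 10.53 in SBC-3, and *WEE1* is lower in A549 at 9.66 than in SBC-3 at 10.08.

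Markers of the lines' tissue were read in the same channel. In EBC-1 *TP63*, *KRT5*, *KRT6A* and *DSG3*, markers of squamous cells, were not well above background, and *SOX2* was. In SK-MES-1 *TP63* and *SOX2* were above background and *KRT5*, *KRT6A* and *DSG3* were not. SBC-3 had *NEUROD1*, *CHGA*, *SYP* and *YAP1* above background on 3 of 3 arrays and *INSM1* and *POU2F3* on 0, and it lacked signal of *EPCAM* and *CDH1*. It also had the squamous markers *TP63*, at a level of 6.66 against 5.36 in SK-MES-1, and *SOX2*, at 14.26 the highest of the 4 lines. A549 had *NAPSA*, *KRT7*, *EPCAM* and *CDH1* on 3 of 3 arrays and *NKX2-1* and *SFTPB*, markers of alveolar cells, on 0. Its *CHGA* level of 8.01 was above the 6.43 of SBC-3, and *NAPSA* and *KRT7* were above background in both squamous lines too. *YAP1* was above background in all 4 lines, and *KRT7* on 3 of 3 arrays of SBC-3. *KRT8*, *KRT18* and *VIM* were above background in every line. The lines are therefore named here as the labels name them, although most squamous markers were absent from both squamous lines. *NEUROD1* and *SYP* were above background in SBC-3 and in no other line.

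Over the 8 arrays the members differed in how closely they followed one another, as a description that rests largely on EBC-1. Pearson's r of a member with the mean of the others was highest for *AURKB* at 0.990 and lowest for *WEE1* at 0.752. Among 9582 other genes with both channels well above background on all arrays, the genes most like the mean of the members were *KIF11*, a spindle kinesin (r = 0.992), *SPDL1*, a kinetochore adaptor (0.990), *TUBA1B*, an alpha-tubulin (0.989), *TMEM97*, a membrane protein that binds sterols (0.989), and *HJURP*, the chaperone of centromeric histone (0.988). On the EBC-1 array their log2 ratios were -1.82, -0.77, -1.85, -1.92 and -1.74. Without EBC-1, over 7 arrays, r was 0.817, 0.751, 0.762, 0.782 and 0.732 in the same order.

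**Figure D5:**
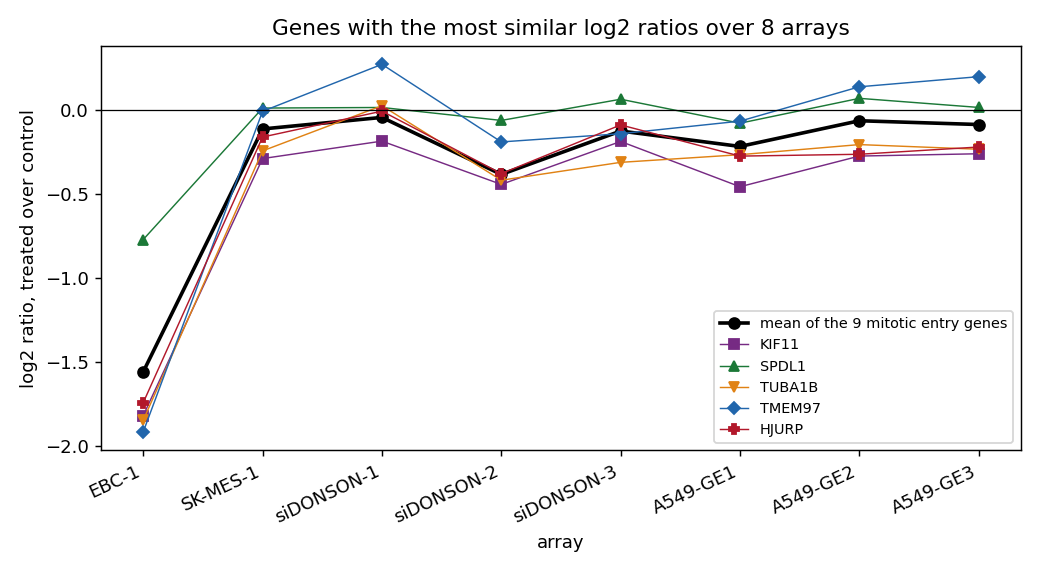
Log2 ratio of treated over control on each of the 8 arrays for the mean of the members and for the 5 genes most like it. All 6 lines are lowest in EBC-1, where *TMEM97* lies at -1.92 and *SPDL1* at -0.77.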

How the data were processed

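RNA of treated cells was compared with control RNA on 8 Agilent arrays of 1 slide, with no dye swap. The authors' Feature Extraction 12.1.1.1 gave each spot a background-subtracted, dye-normalised intensity in either colour and the log10 of red over green with its error. The deposited table of log10 ratios was identical to these values. Outlier spots were dropped (0 were saturated), log10 ratios were turned into log2, spots were averaged per probe, and probes well above background in at least 1 channel were averaged per gene. Green signals were well above background at 41.1% to 46.4% of spots and red signals at 48.5% to 56.2%. Probes were named by RefSeq accession, giving 22439 genes. Groups were fitted with limma 3.58.1 in R 4.3.3, with Benjamini-Hochberg correction over 12862 genes and a threshold of 0.05. The squamous lines formed separate groups, 4 in all with 4 residual degrees of freedom, because their difference would enter the spread; their average came from a fit of 3 groups with 5. Single arrays were called below -1 or above 1. Control levels were scaled to the percentile 75 of probes well above background on all arrays. Tables were made with pandas 2.3.3. Promoter windows were read from RefSeq. The members, the lists and the rule for named genes (the members, the targets, up to the 3 lowest and highest of a list in a comparison, and the 5 genes most like the members) were chosen with earlier results of these data known. The siDONSON-2 values of *KIF20A* and *NEDD9* were singled out after they were seen. Alternatives covered background correction, centring, filters, probe choice, grouping and leaving out arrays. 1 marker gene is not reported here. The number of arrays limits the precision.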

Additional observations from a re-analysis of the deposited data

Results flagged for a closer look

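The squamous lines had log2 ratios of opposite sign for 4 members after transfection with miR-150-3p, and this drew attention to them. SK-MES-1 minus EBC-1 was 1.32 for *CCNB1*, 1.52 for *CCNB2*, 1.47 for *CDC25C* and 0.87 for *WEE1*. These differences were not tested, as each line had 1 array. In SK-MES-1 the ratios were 0.014, 0.18, 0.096 and 0.041, all within 95% limits of the software error, so their sign there is not settled. The probes of *CCNB1* there gave -0.041 and 0.068.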

How the results depend on the processing

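The values recomputed under the alternatives were those of the members, *DONSON* and *LOXL2*, and not those of the genes on the lists around them. Of these values, 721 kept their direction and side of the threshold or stayed within the spread. A further 20 passed the threshold newly, 21 lost it, 12 moved and 19 turned in a test. In all 25 changed sign, among them *CCNA2* and *FOXM1* in SK-MES-1, at 0.22 and 0.12 with the mean of the other arrays subtracted. After normexp with loess, the members below -1 in EBC-1 numbered 5 in place of 8 with a median of -1.02 in place of -1.37. The difference between groups then had 1 member and 2013 genes called in place of 0 and 1320. The miRNA average had 1592 genes in place of 894. The same setting turned the sign of *CCNB1* (0.021), *AURKA* (0.00049) and *LOXL2* (0.054) with siDONSON, *WEE1* (0.019) in edited A549 and *CDK1* (0.0071) in the difference. With normexp on the green channel, a separate setting, the control level difference was 0.65 in place of 0.79. With siDONSON 1 member was called, and 3 after median centring, 2 with both channels above background, and 0 with the squamous lines as 1 group, SBC-3 alone or the label number as a replicate block. The 1526 genes called with siDONSON became 3786 with no filter on dim probes (2765 lower and 1021 higher in place of 653 and 873), 1002 with the squamous lines as 1 group, 26 alone and 202 with the block. In edited A549 2 members became 0 with the squamous lines as 1 group, 4 alone and 1 with the block, and 2412 genes became 6030 with no filter (4310 lower and 1720 higher in place of 1178 and 1234), 5873 alone and 1460 with the block. The difference had 389 genes with the block. The miRNA average had 0 members and 198 genes with no filter. The cause of these shifts was not tested. The siRNA numbers and the editing numbers showed no pairing of arrays, with r of their deviations at -0.022, -0.026 and -0.012 for equal numbers. A small shared part could not be seen in this way. The same 6 arrays with no block, chosen after seeing the data, gave 1468, 2528 and 1347 genes and 1, 2 and 0 members.

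Leaving out 1 array gave 0 to 2 members and 282 to 2557 genes with siDONSON, 0 to 4 and 370 to 3802 in edited A549, 92 to 2289 genes and 0 members in the difference, and 0 to 9 and 12 to 2750 in the miRNA average, where a lone array was assumed to vary like the other groups. Signs turned without siDONSON-2 for *CCNB1* (range -0.093 to 0.092), *AURKA* (-0.19 to 0.15) and, in the difference, *CCNA2* (-0.31 to 0.050) and *AURKB* (-0.093 to 0.057). They turned without siDONSON-1 for *LOXL2* (-0.30 to 0.39), without GE1 for *CCNB2* (-0.064 to 0.0067) and *WEE1* (-0.095 to 0.0043), without GE2 for *CDC25C* (-0.0053 to 0.18) and *DONSON* (-0.0063 to 0.15), and without GE3 for *AURKB* in the difference (0.046). The miRNA average, without SK-MES-1 and without EBC-1, was -1.31 and 0.014 for *CCNB1*, -1.34 and 0.18 for *CCNB2*, -1.37 and 0.096 for *CDC25C* and -0.83 and 0.041 for *WEE1*. At a threshold of -0.58, 9 members were below it in EBC-1, against 0 in SK-MES-1. Median centring split the genes called with siDONSON into 853 lower and 694 higher. The shares of genes lower and higher thus depend on the filter and the centring. Naming probes by another column and blocking by slide were not run. Signal over background limits *CDK1* in EBC-1, where 1 of 2 probes had a red signal near background.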
